A study of Mus musculus with 4 samples.

Results

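Receptors for cytokines of the IL-1, IL-18, IL-12 and IL-6 families were measured in mouse CD8 T cells that overexpressed the transcription factor BATF. The 10 genes were taken by symbol from the deposited expression table (Il1r1, Il1r2, Il1rl1, Il18r1, Il18rap, Il12rb1, Il12rb2, Il6ra, Il6st and Il27ra). All 10 were found among the 24312 genes listed. Their choice used no measured value as a rule, although earlier results of these data were known when the list was drawn up.

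The cells were P14 CD8 T cells on a C57BL/6 background, whose transgenic receptor recognises the viral peptide gp33. Both groups had 1 day of gp33 at 100 ng/ml and a spin transduction with polybrene at 8 µg/ml. The retrovirus was MSCV-IRES-GFP (MIG) or MIG-BATF. Then came 1 further day of activation and 2 days of expansion in IL-2 at 10 ng/ml. Cells positive for CD8 and GFP were sorted and kept for 2 more days in IL-2 at 1 ng/ml before poly(A) RNA sequencing, with 2 libraries per group. The submitters' design text terms the replicates biological. The age and sex of the mice, and whether the 2 libraries of a group came from separate mice, were not stated. Any p-value here rests on the spread between these libraries, with variance shared across the genes tested. How far that spread stands for variation between mice is therefore unknown. The comparison asks how added BATF, expressed from a retroviral promoter above the cells' own gene, changes the transcripts of these receptors after the same culture.

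BATF belongs to the AP-1 family of leucine zipper factors and binds DNA with JUN proteins and with IRF4. Receptors of the IL-1 family (for IL-1, IL-18 and IL-33) carry a cytoplasmic TIR domain and signal through MYD88 and IRAK kinases to NF-κB, and each ligand-binding chain needs an accessory chain. Receptors of the IL-12 and IL-6 families have no TIR domain and signal through JAK kinases and STAT factors. In CD8 T cells IL-12 and IL-18 are known as inflammatory signals that enhance interferon gamma production, and the IL-6 receptor is known from naive and memory cells.

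Library totals ran from 19004726 to 24795707 fragments. Batf stood at 36.1 and 26.5 CPM (fragments relative to the library total, after TMM scaling) in MIG and at 1342 and 934 CPM in BATF, in the direction of the labels. Markers of CD8 T cells were present, with Thy1 the most abundant at 1235 to 1594 CPM. The summed level of the 9 CD8 T cell markers was 5345 and 5335 CPM in MIG and 4424 and 4923 CPM in BATF, and edgeR's test called 0 of the 9. All 9 had a negative log2 fold change of BATF over MIG, with a median of −0.18. The groups did not overlap in 6 of them, beside 38.7% of all genes tested. At an unadjusted p under 0.05, 3 of the 9 were lower, beside 4.09% of all genes tested.

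Across the receptors, 1 transcript rose and 1 fell with added BATF. Il1r2, which encodes the IL-1 decoy receptor, rose 12.7-fold from a near-silent level. Il6ra, which encodes the ligand-binding chain of the IL-6 receptor, fell to 0.329 of its MIG level. Il18r1, Il18rap, Il12rb1, Il12rb2 and Il27ra were far more abundant, and none of them passed. The test was edgeR's quasi-likelihood test over 13008 genes with Benjamini-Hochberg adjustment, and the adjusted p is written as FDR, with a threshold of 0.05. Over all genes tested it called 0.884% higher and 0.208% lower, 1.09% in either direction. As alternatives, DESeq2 called 2.26% higher and 0.843% lower, and limma-voom 0.753% and 0.192%. With 1 MIG library left out edgeR called 1.79% (the first) or 4.27% (the second) of the genes tested, and with 1 BATF library left out 2.00% or 1.79%. At an unadjusted p under 0.05, 6.69% of all genes tested were higher and 4.09% lower. Of the 10 receptors, 9 reached the count minimum for testing, and Il1r1 did not. Il1r2 reached that minimum through its BATF libraries only, so its presence among tested genes already depended on its being high there. The 9 tested receptors had a median log2 fold change of 0.06, beside −0.0056 over all genes tested. The groups did not overlap in 3 of the 9 (Il1r2, Il1rl1 and Il6ra), and in 38.7% of all genes tested. In bulk RNA, fewer cells that carry a transcript and less of it per cell cannot be told apart.

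The receptors fell into 3 ranges of abundance. On the deposited FPKM scale, which divides fragments by transcript length and library size, 5 receptors lay between 17.4 and 77.4 in every library. They were, from the highest mean in MIG downward, Il12rb1, Il12rb2, Il27ra, Il18r1 and Il18rap. Il6st lay between 5.06 and 6.93 FPKM. The other 4 stayed under 2.48 FPKM in every library. Mean FPKM over the 4 libraries placed Il12rb1 above 88.6% of tested genes, Il18rap above 68.4% and Il6ra above 24.3%. In MIG, neighbours in the order of means overlapped between libraries for Il18r1 with Il18rap and for Il1r1 with Il1r2. In BATF no neighbours overlapped, and Il1r2 took the seventh place, held by Il6ra in MIG.

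**Figure D1:**
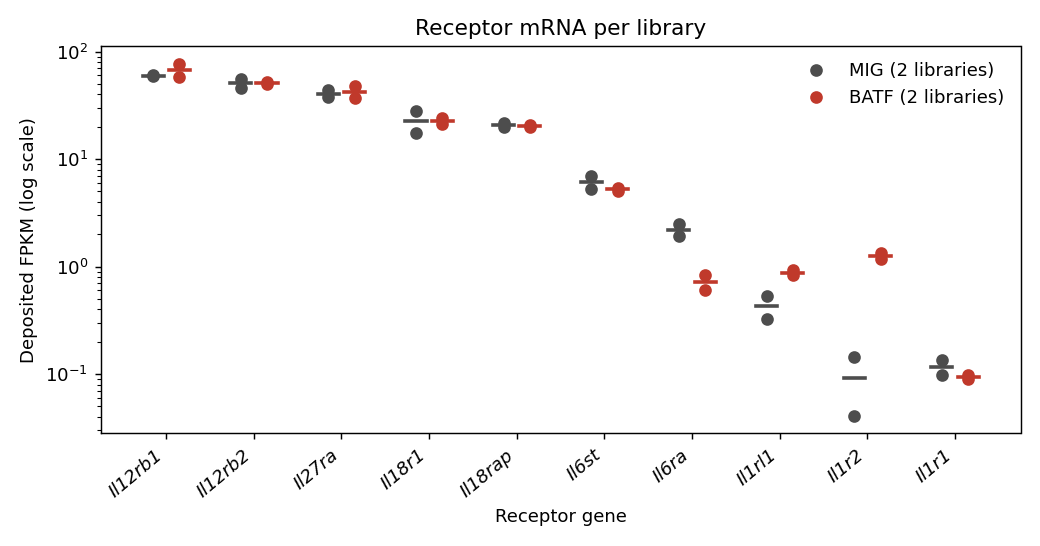
Deposited FPKM (log scale) of the 10 receptor genes, with 1 point per library and a short line at the mean of each group. The 5 genes on the left lie between 17.4 and 77.4 FPKM in every library. MIG and BATF points separate for Il6ra, Il1rl1 and Il1r2. For Il1r1 they separate narrowly in FPKM (0.0992 and 0.134 in MIG, 0.0903 and 0.0985 in BATF), and its groups overlap in CPM.

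The IL-1 receptors proper came first in the comparison because they hold the gene with the greatest difference. Il1r1 encodes the signalling receptor for IL-1, and Il1r2 a receptor that binds IL-1 but lacks the TIR domain and passes on no signal. The MIG libraries held 4 and 1 fragments of Il1r2, and the BATF libraries 26 and 34. On the FPKM scale these were 0.143 and 0.0410 in MIG and 1.17 and 1.35 in BATF. Every BATF library was above every MIG library. The level was 0.106 ± 0.0812 CPM in MIG and 1.47 ± 0.135 CPM in BATF (SD, n = 2 per group), a log2 fold change of 3.67 ± 0.55 SE (95% interval 2.35 to 4.98, edgeR FDR = 0.0352). By size it was the fifth among the 115 genes called higher, a place that rests on 5 MIG fragments. Since it was tested only through its BATF libraries, neither this place nor the values below are independent of that selection. Summed per group, 5 fragments stood against 60, a depth-scaled ratio of 13.3 with an exact 95% interval of 5.38 to 42.3, which covers counting error only. The log2 fold change ran from 3.12 without MIG replicate 2 to 4.76 without MIG replicate 1, and the call held in each fit with 1 library left out (edgeR FDR from 0.00785 to 0.0478).

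Il1r1, the neighbouring gene on chromosome 1, was under the count minimum and was not tested. Fragments numbered 11 and 13 in MIG against 8 and 10 in BATF. Its level was 0.0992 and 0.134 FPKM in MIG and 0.0903 and 0.0985 FPKM in BATF, with both BATF libraries lower on this scale. In CPM (0.449 and 0.631 in MIG, 0.422 and 0.460 in BATF) the groups overlapped. The depth-scaled ratio of BATF to MIG was 0.829, with an exact 95% counting interval of 0.424 to 1.59, which leaves out the spread between libraries. The FPKM ratio of decoy to signalling receptor was 1.45 and 0.306 in MIG and 12.9 and 13.7 in BATF. The groups of ratios did not overlap. This ratio rests on few fragments, and its BATF mean of 13.3 became 6.99 when 0.1 FPKM was added to both genes.

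Il1rl1 encodes ST2, the receptor for the alarmin IL-33, known from mast cells, type 2 innate lymphocytes, regulatory T cells and activated CD8 T cells. Fragments numbered 36 and 52 in MIG against 69 and 101 in BATF. Its CPM was 1.47 and 2.52 in MIG and 3.64 and 4.64 in BATF, with both BATF libraries above both MIG libraries. The log2 fold change of 1.06 ± 0.32 SE (95% interval 0.31 to 1.82) did not pass (unadjusted p = 0.0126, edgeR FDR = 0.237). Without MIG replicate 2 it was 1.49 and passed (edgeR FDR = 0.0262), and without MIG replicate 1 it was 0.72 (edgeR FDR = 0.396). ST2 exists as a membrane form and a shorter soluble form, and the gene-level table does not separate them. The authors' scaled fragments per FPKM unit, a reading of the transcript length their run assumed, was 99.1 and 99.8 in MIG and 92.2 and 107.8 in BATF for Il1rl1, a range of 1.17-fold. For 7 of the 10 receptors, Il1r2 and Il6ra among them, that range was 1.00-fold.

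Markers of other cell types that can express Il1r2 or Il1rl1 were measured beside them. Of 13 myeloid and dendritic cell markers 3 reached the count minimum. Their summed level was 10.7 and 7.33 CPM in MIG and 11.7 and 6.11 CPM in BATF, most of it Itgam, an integrin that activated T cells also carry. S100a8 and S100a9, known from neutrophils, had 0 fragments in 2 of the 4 libraries each and at most 0.0971 CPM. Csf3r, on the same list, was tested and stood at 0.858 and 1.21 CPM in MIG and 1.00 and 0.919 CPM in BATF. Of the 3 tested, 1 had a positive log2 fold change and 2 a negative one. Of 10 mast cell, basophil and type 2 innate lymphocyte markers, a list that holds Il1rl1 itself, 5 were tested. The 10 summed to 22.9 and 31.2 CPM in MIG and 30.0 and 31.1 CPM in BATF, led by Rora. Kit was next, at 1.23 and 7.91 CPM in MIG and 2.58 and 6.39 CPM in BATF. Of the 5 tested, 4 had a positive log2 fold change and 1 a negative one. Ms4a2 stood at 0.409 and 0.243 CPM in MIG and 0.580 and 0.505 CPM in BATF. The mast cell gene Fcer1a was at 0 in 3 libraries. Markers of CD4 and regulatory T cells summed to 45.6 and 41.7 CPM in MIG and 64.4 and 55.5 CPM in BATF, with 6 of 6 tested. Zbtb7b, which encodes the CD4 lineage factor ThPOK, was the main part of the gap, at 23.0 and 17.9 CPM in MIG and 44.2 and 34.9 CPM in BATF (log2 fold change 0.95, edgeR FDR = 0.0658). Cd4 itself stood at 0.490 and 0.534 CPM in MIG and 0.791 and 0.597 CPM in BATF, and Foxp3, the factor of regulatory T cells, at 1.31 and 2.09 CPM in MIG and 0.896 and 1.43 CPM in BATF. Itgam, Rora and Zbtb7b each led 1 of these sums, and 1 of the lists holds Il1rl1 itself. The sums were therefore not set against the levels of Il1r2 and Il1rl1. The part of the marked cells in the values of either receptor was not tested. B cell markers (2 of 7 tested, led by Cd79b at 11.2 to 17.2 CPM) and markers of NK and gamma-delta T cells (2 of the 6 listed, led by Fcer1g at 0.369 to 1.26 CPM) were measured as well. Over these 5 lists edgeR and limma-voom called 0 genes. At an unadjusted p under 0.05 Zbtb7b and Il1rl1, itself one of the receptors, were higher and Cd79b was lower. Over all genes tested the shares were 6.69% higher and 4.09% lower. DESeq2 called Zbtb7b higher, beside 2.26% of all genes.

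Il18r1 binds IL-18 and Il18rap is its accessory chain, and both are needed for signalling. Il18r1 stood at 93.6 and 59.2 CPM in MIG and at 85.8 and 73.4 CPM in BATF, with the BATF values between the MIG values. Its log2 fold change was 0.06 ± 0.20 SE (95% interval −0.43 to 0.54, edgeR FDR = 0.977), and the sign depended on the library left out. The spread came from the MIG libraries, and leaving out MIG replicate 1 gave 0.43 and leaving out MIG replicate 2 gave −0.24. Il18rap was steadier, with 100.6 and 95.9 CPM in MIG and 95.4 and 99.2 CPM in BATF. Its interval of −0.21 to 0.18 around a log2 fold change of −0.014 was the narrowest of the 9 tested receptors. Both chains were present in like amounts per length, with FPKM ratios of Il18r1 to Il18rap of 1.31 and 0.881 in MIG and 1.22 and 1.02 in BATF, which overlapped.

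RefSeq (assembly GRCm38.p6) lists Il1r2, Il1r1, Il1rl2, Il1rl1, Il18r1 and Il18rap next to each other on chromosome 1, between Map4k4 and Slc9a4. The authors' build was mm9, so only the order is used here. Differences within this row of genes were uneven. The gene that rose, Il1r2, lies at the Map4k4 end, and Il18r1 and Il18rap at the other end were the most abundant of the row and did not pass. Il1rl2, which encodes the IL-36 receptor and lies between Il1r1 and Il1rl1, stood at 0.858 and 0.194 CPM in MIG and 1.63 and 0.689 CPM in BATF, and its groups overlapped (edgeR FDR = 0.709). Map4k4, a kinase gene, stood at 249 to 302 CPM in all libraries (log2 fold change 0.10, edgeR FDR = 0.882). Of the 6 neighbours fixed as a list, 3 were tested and 0 passed, among them Mfsd9 (log2 fold change −0.16).

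Il12rb1 is shared by the receptors for IL-12 and IL-23, and Il12rb2 completes the IL-12 receptor and recruits STAT4. Il12rb1 was the most abundant receptor of the 10, at 60.7 and 58.9 FPKM in MIG and 58.0 and 77.4 FPKM in BATF. Of these 4 values, BATF replicate 2 was the highest and BATF replicate 1 the lowest, so the groups overlapped. The log2 fold change was 0.18 ± 0.13 SE (95% interval −0.13 to 0.49, edgeR FDR = 0.761). Without BATF replicate 2 it was −0.029. Il12rb2 stood at 45.8 and 56.0 FPKM in MIG and at 50.4 and 52.3 FPKM in BATF, again with the BATF values inside the MIG range. Its log2 fold change of 0.02 ± 0.12 SE had a 95% interval of −0.27 to 0.30. The FPKM ratio of Il12rb2 to Il12rb1 was 0.755 and 0.950 in MIG and 0.870 and 0.676 in BATF, and these ranges overlapped.

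IL-6 binds the chain encoded by Il6ra, which then joins gp130, encoded by Il6st. Il6ra had 190 and 128 fragments in MIG against 51 and 42 in BATF. Scaled, these were 7.76 and 6.21 CPM in MIG and 2.69 and 1.93 CPM in BATF, with both MIG libraries above both BATF libraries. The log2 fold change was −1.60 ± 0.25 SE (95% interval −2.19 to −1.02, edgeR FDR = 0.0406), a 3.04-fold lower level. It was the second largest fall among the 27 genes called lower. The fall lay between −1.38 and −1.85 with 1 library left out, and leaving out MIG replicate 1 ended the call (edgeR FDR = 0.0653). With limma-voom it was also lost (FDR = 0.0532), and DESeq2 kept it (FDR = 0.000684). A membrane chain and a soluble form both derive from Il6ra, and mRNA counted per gene does not separate them.

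Il6st, shared by the receptors of the IL-6 family, stood at 6.93 and 5.30 FPKM in MIG and at 5.39 and 5.06 FPKM in BATF, and the groups overlapped. Its log2 fold change was −0.22 ± 0.14 SE (95% interval −0.56 to 0.12, edgeR FDR = 0.707). Within a library, Il6ra reached 0.357 and 0.360 of the FPKM of Il6st in MIG and 0.154 and 0.120 in BATF. The ligand-binding chain was thus the scarcer of the pair in all 4 libraries, and its ratio was lower in both BATF libraries. Il27ra pairs with gp130 to form the IL-27 receptor. It stood at 43.6 and 37.7 FPKM in MIG and at 37.2 and 47.4 FPKM in BATF, with the BATF libraries on either side of the MIG libraries. Its log2 fold change of 0.06 ± 0.12 SE had a 95% interval of −0.23 to 0.36 (edgeR FDR = 0.950). Per length, Il27ra exceeded Il6st 6.29-fold and 7.10-fold in MIG and 6.90-fold and 9.38-fold in BATF, and the groups overlapped. With 2 libraries a group, no permutation test of such a ratio can give a two-sided p below 0.333, so none was run.

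**Figure D2:**
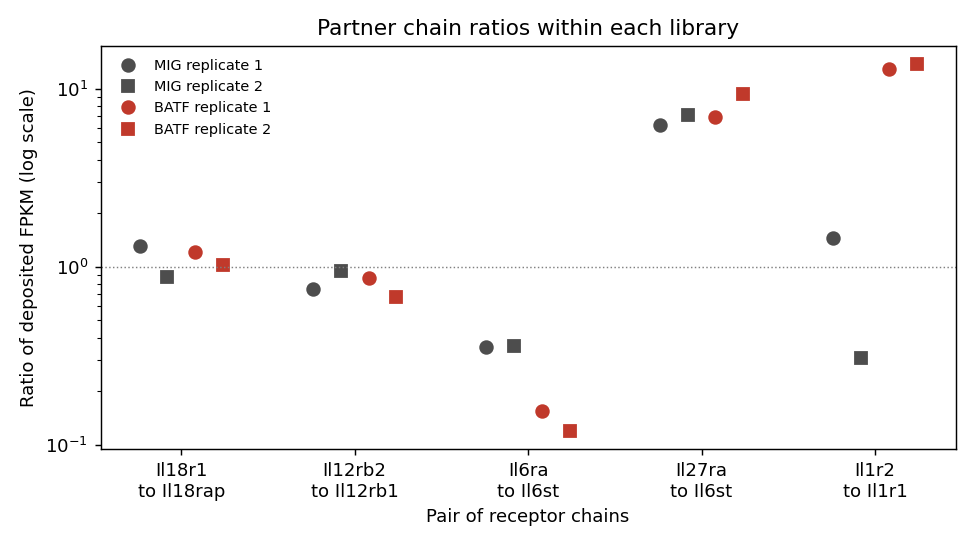
Ratio of deposited FPKM (log scale) between paired receptor genes within each library, with circles for replicate 1 and squares for replicate 2. The groups separate for Il6ra to Il6st (0.357 and 0.360 in MIG, 0.154 and 0.120 in BATF) and for Il1r2 to Il1r1, and overlap for the other 3 pairs.

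**Figure D3:**
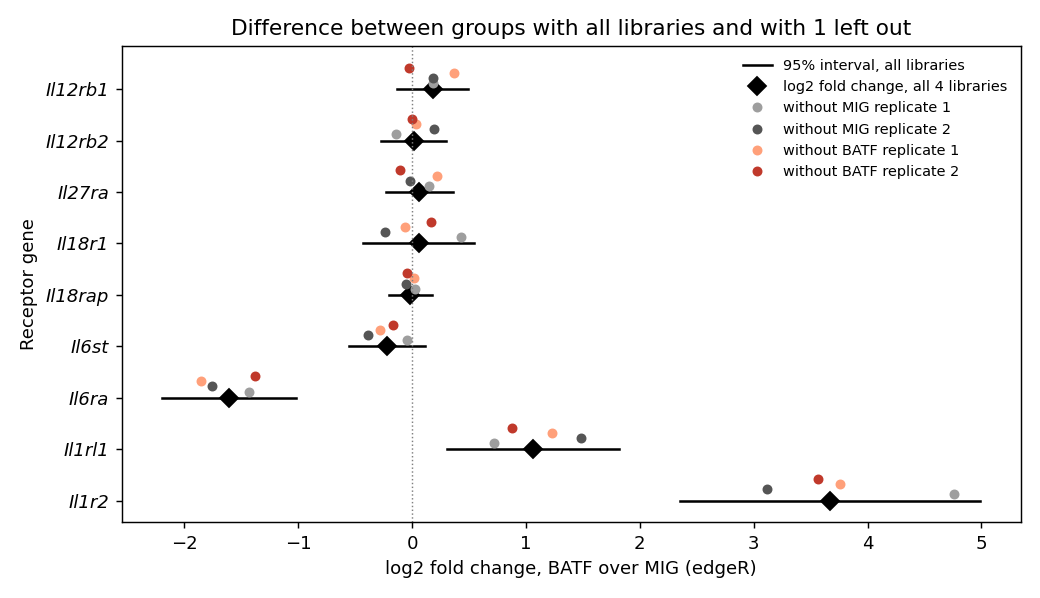
Log2 fold change of BATF over MIG from edgeR for the 9 tested receptors, with diamonds and 95% intervals for all 4 libraries and circles for fits with 1 library left out. Il1r2 stays above 3 and Il6ra below −1.3 in each fit, and the circles of Il12rb1, Il12rb2, Il27ra, Il18r1 and Il18rap fall on both sides of 0.

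Sequence before the transcription start was read for the 2 receptors that changed. RefSeq (GRCm38.p6) promoter windows, here the 250 bases before an annotated start, were found for 8 of the 10 receptors, with 12 windows in all. Il1r2 is shown at chr1:40085843-40086092 on the plus strand and Il6ra at chr3:89913197-89913446 on the minus strand, each 5′ to 3′, to let the letters be compared with motifs that BATF complexes are known to bind.
Il1r2: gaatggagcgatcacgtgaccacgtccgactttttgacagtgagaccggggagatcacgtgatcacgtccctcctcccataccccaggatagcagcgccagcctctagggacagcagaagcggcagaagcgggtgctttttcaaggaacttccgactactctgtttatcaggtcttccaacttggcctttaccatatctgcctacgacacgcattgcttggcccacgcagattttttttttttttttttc
Il6ra: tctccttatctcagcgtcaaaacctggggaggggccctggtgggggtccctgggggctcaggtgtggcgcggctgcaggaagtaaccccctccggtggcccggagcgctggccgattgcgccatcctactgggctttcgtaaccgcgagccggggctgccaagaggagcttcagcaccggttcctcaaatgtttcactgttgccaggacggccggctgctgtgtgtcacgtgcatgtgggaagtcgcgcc
Capitals would mark a motif, and these windows have none. The AP-1 motif TGANTCA, searched on both strands, was absent from all 12 windows, and 6.75% of 32851 RefSeq windows of this length held it. Also absent was the cyclic AMP element TGACGTCA, which 1.55% of all windows held. No match says only that these letters are not in these windows.

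Genes around the receptors were taken from lists of family receptors, ligands, signal transducers, shedding proteases and genomic neighbours. Together these lists held 72 genes besides the 10 receptors, and 53 were tested. EdgeR called 0 of the 53. At an unadjusted p under 0.05, 5 of the 53 were higher and 9 lower, beside 6.69% and 4.09% of all genes tested. With DESeq2 the calls were 1 higher and 4 lower, beside 2.26% and 0.843% of all genes. With limma-voom they were 0. The median log2 fold change of the 53 was −0.05. Groups did not overlap in 27 of them, beside 38.7% of all genes tested.

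Among 7 tested receptors outside the 10, Sigirr was the most abundant. It encodes an inhibitory receptor of the IL-1 family and stood at 54.7 and 38.6 CPM in MIG and 67.6 and 61.8 CPM in BATF (log2 fold change 0.47, edgeR FDR = 0.333). With 1 library left out its log2 fold change ran from 0.23 (without MIG replicate 2) to 0.75 (without MIG replicate 1). Il1rap, the accessory chain shared by the IL-1 and IL-33 receptors and bound also by the decoy, stood at 12.7 and 16.5 CPM in MIG and 11.0 and 11.8 CPM in BATF (log2 fold change −0.36, edgeR FDR = 0.546). Lepr, the leptin receptor, stayed between 2.21 and 2.96 CPM. The IL-23 receptor gene Il23r, partner of Il12rb1 and named after its values were seen, was under the count minimum at 0.194 to 0.409 CPM.

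Of 18 ligands and soluble antagonists 7 were tested. Osm, the ligand oncostatin M, lay between 29.6 and 46.5 CPM and overlapped between groups. Clcf1, another ligand of the IL-6 family, had a log2 fold change of −0.38 (edgeR FDR = 0.576), and Ebi3, a subunit of IL-27, one of 0.45 (edgeR FDR = 0.621). Il1a, Il1b, Il6, Il12a, Il12b and Il27 were under the count minimum. Lif and Il18 are named because their differences were the largest of this list once values were seen. Lif, a ligand that signals through gp130, stood at 4.45 and 8.45 CPM in MIG and 1.53 and 2.53 CPM in BATF (log2 fold change −1.65 ± 0.38 SE, edgeR FDR = 0.137). It passed in DESeq2 (FDR = 0.00898). With 1 library left out its log2 fold change ran from −2.06 (without BATF replicate 2) to −1.13 (without MIG replicate 2). Il18, the ligand of Il18r1, stood at 0.531 and 0.194 CPM in MIG and 2.11 and 0.827 CPM in BATF (edgeR FDR = 0.294).

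All 20 genes of IL-1 and IL-18 signal transduction were tested and edgeR called none of them (0 of 20). At an unadjusted p under 0.05, 2 were higher and 3 lower, beside 6.69% and 4.09% of all genes tested. DESeq2 and limma-voom called 0 as well. Nfkb1, which encodes an NF-κB subunit, stood at 533 and 505 CPM in MIG and 611 and 631 CPM in BATF (log2 fold change 0.26 ± 0.08 SE, edgeR FDR = 0.247). Tab2, an adaptor of the kinase TAK1, overlapped between groups, and Mapk14, which encodes p38 alpha, had a log2 fold change of −0.23 (edgeR FDR = 0.375). Myd88, the adaptor of the TIR receptors, ranged from 64.8 to 71.4 CPM over the 4 libraries and is named after its values were seen.

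The 14 genes of IL-12 and IL-6 signal transduction gave 0 edgeR calls. Of the 14, 10 had a negative log2 fold change and 4 a positive one. At an unadjusted p under 0.05, 1 was higher and 4 were lower, beside 6.69% and 4.09% of all genes tested. DESeq2 called 1 higher and 3 lower of them, beside 2.26% and 0.843% of all genes, and limma-voom 0. Jak1, a kinase bound by gp130, stood at 833 and 799 CPM in MIG and 648 and 683 CPM in BATF (log2 fold change −0.29, edgeR FDR = 0.196). With 1 library left out its log2 fold change ran from −0.33 to −0.26. Cish, a feedback inhibitor of cytokine signals, overlapped between groups.

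Stat4, Socs3 and Stat3 are named after their values were seen, because they act downstream of Il12rb2 and gp130. Socs2 is also named after its values were seen, as the 1 gene of this list that DESeq2 called higher. Stat4, the main transducer of IL-12, stood at 185 and 179 CPM in MIG and 133 and 141 CPM in BATF (log2 fold change −0.41 ± 0.08 SE, edgeR FDR = 0.0881). It passed in DESeq2 (FDR = 0.0111). With 1 library left out its log2 fold change ran from −0.45 to −0.36. Socs3, an inhibitor that docks on gp130, stood at 42.2 and 28.8 CPM in MIG and 22.7 and 22.2 CPM in BATF (log2 fold change −0.66, edgeR FDR = 0.216). DESeq2 called Socs3 (FDR = 0.0486). With 1 library left out its log2 fold change ran from −0.92 (without MIG replicate 2) to −0.36 (without MIG replicate 1). Stat3, the main transducer of IL-6, ranged from 171 to 188 CPM with overlapping groups (log2 fold change 0.03, edgeR FDR = 0.974). Socs2 stood at 45.9 and 54.7 CPM in MIG and 68.8 and 73.0 CPM in BATF (log2 fold change 0.50 ± 0.11 SE, edgeR FDR = 0.123, DESeq2 FDR = 0.0227).

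Proteases that release soluble cytokine receptors from the surface were measured as a list of 3, and 0 passed in edgeR, DESeq2 or limma-voom. At an unadjusted p under 0.05, 1 was lower, beside 4.09% of all genes tested. Adam10 stood at 212 to 238 CPM. Adam17, which cleaves the IL-6 receptor, stood at 87.1 and 100.2 CPM in MIG and 77.2 and 80.0 CPM in BATF (log2 fold change −0.25, edgeR FDR = 0.393). Rhbdf2, which carries ADAM17 to the surface, overlapped between groups at 33.1 to 41.3 CPM.

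**Figure D4:**
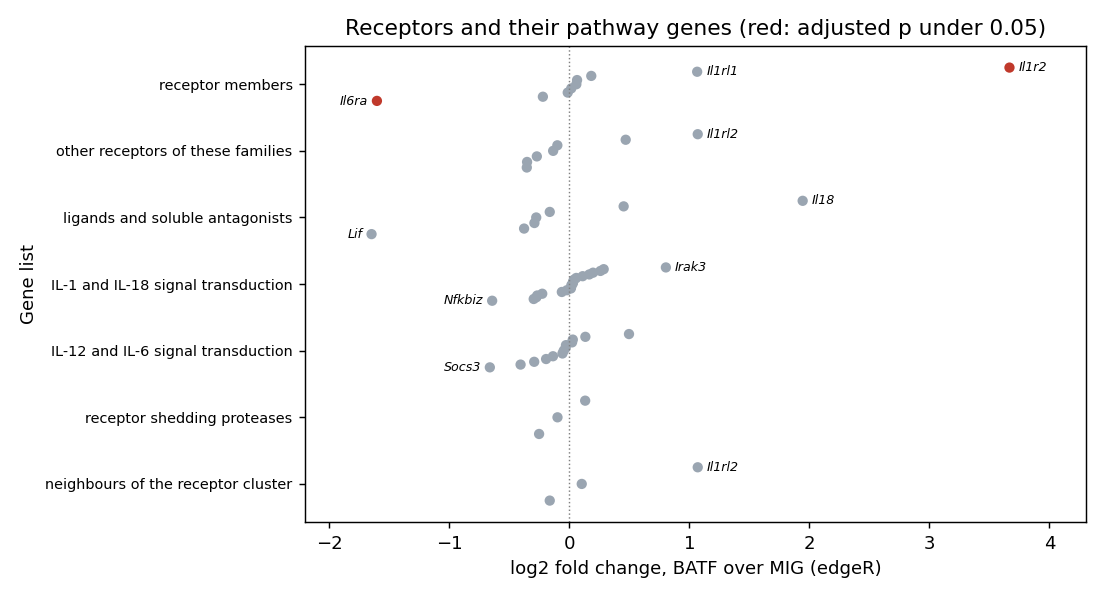
Log2 fold change of BATF over MIG for tested genes of the receptor list and of 6 lists around it, with genes beyond 0.6 in size labelled once values were seen. Red marks an edgeR FDR under 0.05, reached by Il1r2 and Il6ra, and the points drawn for both signal transduction lists lie between −0.66 and 0.80.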

How the data were processed

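Poly(A) RNA was sequenced in 4 libraries, 2 per group. Per the submitters' processing notes, TopHat2 2.1.1, Cufflinks 2.2.2 and Cuffdiff were used with build mm9. The annotation and the strandedness are not stated there. The authors deposited 1 table with estimated counts per gene, condition and replicate, a scaled fragment signal and FPKM, per the file headers. It numbers replicates 0 and 1, read here as 1 and 2, so a number only names a library. Estimated counts (97.6% whole, to 0 decimals) were rounded, then compared by edgeR 4.0.16 under R 4.3.3 (filterByExpr, TMM, glmQLFit, glmQLFTest, no covariate, Benjamini-Hochberg over 13008 genes). SE is the coefficient divided by the square root of F, and intervals use the test's degrees of freedom. Alternatives used DESeq2 1.42.0 and limma 3.58.1. The test was tested on simulated data. No library repeated another, with a chi-square per gene between replicates of 17.7 in MIG and 9.49 in BATF.

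Named genes were the 10 receptors, Batf, called genes and the 3 most abundant of each pathway list, and the most abundant of each marker list. All others were chosen after values were seen, including S100a8, S100a9, Csf3r, Kit, Ms4a2, Fcer1a, Cd4, Foxp3 and the ligands given as under the count minimum. Of the genes this rule names, 1 is counted in its list but not reported here or drawn. The members and lists were chosen with earlier results of these data known. Levels between genes were compared in deposited FPKM.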

Additional observations from a re-analysis of the deposited data

How the results depend on the processing

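The call of Il1r2 held under all 11 alternatives run. These alternatives reuse the libraries whose BATF values brought Il1r2 among the tested genes. Il6ra stayed lower in all 11 and lost its call in 4 of them, without MIG replicate 1, in limma-voom (adjusted p = 0.0532) and in limma on log2(FPKM + 1) (adjusted p = 0.0716) and on log2(FPKM + 0.1) (adjusted p = 0.0625). In each of these 4 the count of changed receptors was 1 in place of 2. The count of changed genes was 142 and became 349 with no filter on low counts, 364 in DESeq2, 44 in limma on log2(FPKM + 1), 81 on log2(FPKM + 0.1) and 248 to 589 with 1 library left out. Pathway genes called outside the receptors numbered 0, and 3 with no filter, 5 in DESeq2 and 2 to 6 with 1 library left out.

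Of the 7 tested receptors that were not called, 5 turned sign with 1 library left out, and Il1rl1 (0.72 to 1.49) and Il6st (−0.38 to −0.040) did not. The log2 fold change ran from −0.24 to 0.43 for Il18r1, −0.055 to 0.025 for Il18rap, −0.029 to 0.37 for Il12rb1, −0.14 to 0.19 for Il12rb2 and −0.11 to 0.22 for Il27ra. In fits with 1 library left out, the remaining library of that group takes its spread from the other group, and more genes reach the count minimum.

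No source used here ties same-numbered libraries to a shared mouse, batch or day, and with 2 pairs the data do not settle it. The replicate block leaves 1 residual degree of freedom. The correlation of replicate differences between the groups was 0.181 over 13008 genes. With the replicate block edgeR called 1504 genes, 3 receptors (Il1r2, Il6ra and Il1rl1, the last with adjusted p = 0.000198) and 16 pathway genes. Levels per effective length could not be computed, since the table gives no length. Receptors with few fragments (Il1r1, and Il1r2 in MIG) are limited by counting error.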
